A study of Mus musculus with 80 samples.

Results

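Transcripts of voltage-gated sodium and calcium channel subunits were followed in heart tissue of mice that were kept awake, slept, or were killed at lights-on. The set holds every gene whose probe set carried 1 symbol beginning with Cacn, or with Scn followed by digits and a or b. It comprised 34 of the 18820 named genes, on 50 of 35556 probe sets, and each gene was read from its probe set of highest mean. The 5 genes with a mean log2 intensity of 7 or more over all 80 arrays (Cacna2d1, Cacna1c, Scn7a, Scn4b and Cacna1g) were described in detail, and 29 lay below that value. Cacna1g lay just inside the cutoff at 7.11, and Cacng7 (6.86) and Cacna1h (6.68) just outside it. The intensity of 1 probe set cannot be set against that of another, so that every comparison below is of a gene with itself. Scn4a, Cacnb2, Cacnb3 and Cacna1d are not analysed here.

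All animals were male C57BL/6J mice aged 10 ± 1 weeks that had food only in the dark phase, and all were accustomed to the experimenter and to gentle touching before the study. Sleep-deprived mice (SD) stayed awake under gentle handling that began at lights-on and lasted 3, 6, 9 or 12 h (n = 8, 9, 9 and 8, 34 in all). Spontaneously sleeping mice (SS) were left undisturbed and killed at the same times (n = 9 each, 36 in all), and baseline mice (CTL, n = 10) were killed at lights-on. After a ± sign and in the captions' error bars, SD is the standard deviation between animals. Sleep was estimated from inactivity between infrared beams. By this estimate undisturbed mice slept for most of the time before each killing, but not for all of it. The mice had no brain recordings, and the study states that it could therefore not quantify short sleep in SD mice and activity in SS mice.

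Each animal gave 1 array. Array medians lay between 5.23 and 5.39 and pairwise correlations between 0.978 and 0.995. Of 7 markers of working heart muscle 6 were measured, the lowest of them, Ryr2, at a mean of 12.1, and the mean of this list lay between 13.02 and 13.05 in all 9 groups. The last number of the sample titles, whose meaning the labels do not give, passes through the groups in 4 runs. Runs 1 and 2 held all 9 and 12 h animals, runs 3 and 4 all 3 and 6 h animals, and run 3 all baseline animals. Both states stood in every run, whereas time and run could be told apart only in part. The mean correlation of 5 arrays with the rest was low, and skeletal muscle markers were raised in baseline animal 2 (list mean 9.06) and in SD animal 4 at 6 h (7.67). RNA of a bulk tissue does not tell fewer cells of a type from less RNA per cell.

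Voltage-gated sodium channels open first in the cardiac action potential and carry its upstroke. L-type calcium channels then admit the calcium that triggers release from the sarcoplasmic reticulum and so couple excitation to contraction, while T-type channels contribute to pacemaking. The pore of either channel is 1 large alpha subunit. In calcium channels, alpha2delta and beta subunits bring the pore to the membrane and set its gating, and in sodium channels the beta subunits, small membrane proteins with an immunoglobulin fold, tune gating and adhesion.

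Whether the subunits differed between behavioral states was asked over all 4 times together. In SD hearts 3 auxiliary subunits of calcium channels were lower than in SS hearts, and no pore gene passed the test. Relative to SS hearts Cacna2d1 changed by -10.1%, Cacnb1 by -11.1% and Cacnb4 by -11.5%. Scn4b, a sodium channel beta subunit, stood at -14.6% and missed the threshold narrowly. The 3 genes that passed make 8.82% of the 34 members, against 8.38% of all probe sets past the same threshold (limma, Benjamini-Hochberg adjusted p under 0.01), and 4.94% of all probe sets were called lower. The share of members called is thus near that of the array. Of the 18820 named genes, read like the members with 1 probe set per symbol, 2372 passed, and 4 members did, Scn4b among them. The median difference of the 34 members was -0.04 on the log2 scale, against -0.01 over all probe sets, and 13 of the 34 were above 0.

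**Figure D1:**
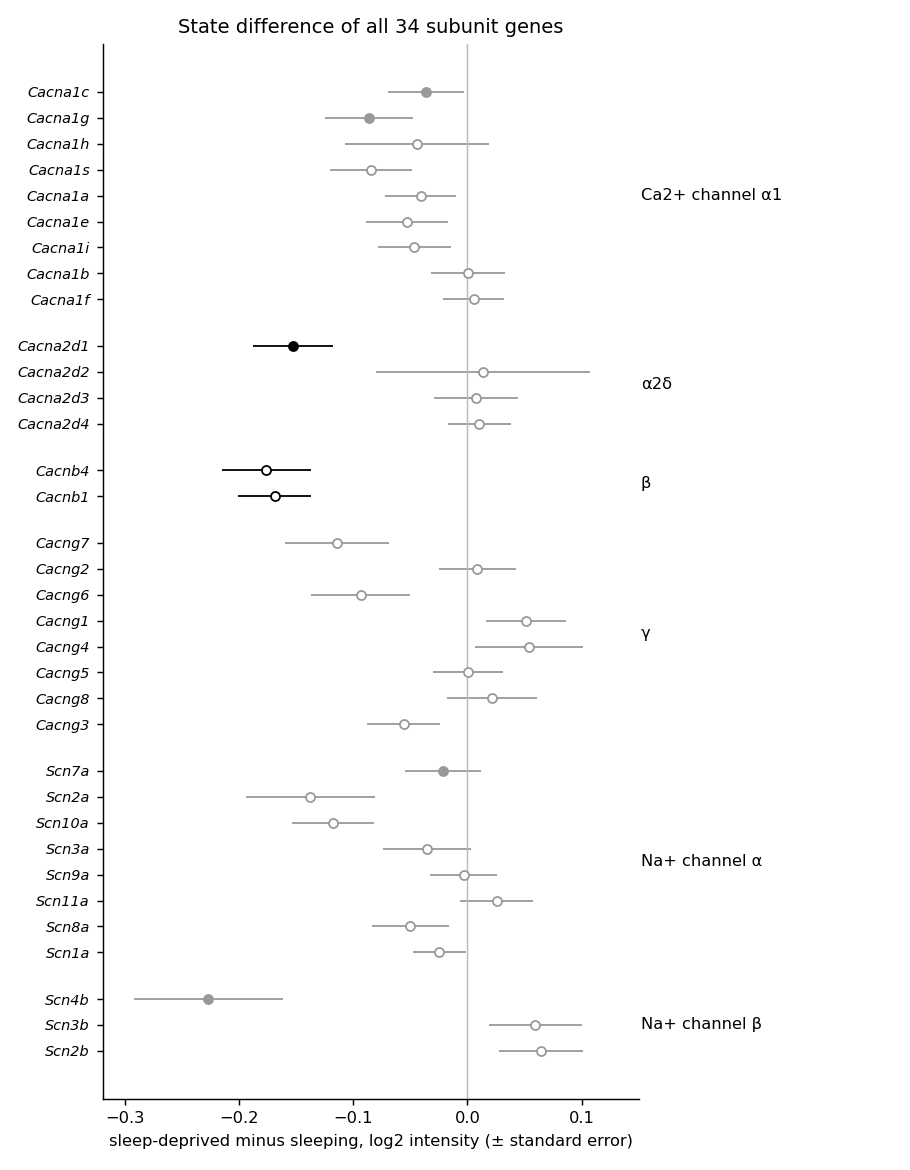
Difference between sleep-deprived and sleeping hearts (x axis, log2 intensity, 34 SD minus 36 SS animals) of all 34 subunit genes (rows, grouped by subunit kind and ordered by mean intensity), with bars of 1 standard error. Black marks passed an adjusted p of 0.01, grey marks did not, and filled marks have a mean of 7 or more; the 3 black marks (Cacna2d1, Cacnb4 and Cacnb1) lie between -0.15 and -0.18, and Scn4b lies at -0.23 with a wider bar.

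The RefSeq promoter table of build GRCm38.p6 held windows for 26 of the 34 members. The 250 bases before the start site are shown for the 4 genes above, since these moved the same way, from the most upstream start where several were listed (2 for Cacnb1, 3 for Cacnb4). The windows are chr5:15934441-15934690 on the plus strand for Cacna2d1, chr11:98022628-98022877 on the minus strand for Cacnb1, chr2:52676144-52676393 on the minus strand for Cacnb4 and chr9:45138374-45138623 on the plus strand for Scn4b. Sequences are 5′ to 3′ in the direction of transcription, and capitals mark matches on either strand to a GC box, a CCAAT box or a glucocorticoid receptor element core.
Cacna2d1: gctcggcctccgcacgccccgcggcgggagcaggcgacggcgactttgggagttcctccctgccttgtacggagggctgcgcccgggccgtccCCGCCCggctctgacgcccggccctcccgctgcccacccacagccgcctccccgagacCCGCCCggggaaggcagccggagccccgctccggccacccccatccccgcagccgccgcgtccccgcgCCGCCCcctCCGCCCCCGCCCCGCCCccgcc
Cacnb1: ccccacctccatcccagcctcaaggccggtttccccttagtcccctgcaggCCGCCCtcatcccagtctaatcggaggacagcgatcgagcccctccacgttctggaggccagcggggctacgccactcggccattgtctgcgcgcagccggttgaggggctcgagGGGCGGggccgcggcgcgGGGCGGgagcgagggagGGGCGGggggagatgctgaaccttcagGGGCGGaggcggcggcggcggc
Cacnb4: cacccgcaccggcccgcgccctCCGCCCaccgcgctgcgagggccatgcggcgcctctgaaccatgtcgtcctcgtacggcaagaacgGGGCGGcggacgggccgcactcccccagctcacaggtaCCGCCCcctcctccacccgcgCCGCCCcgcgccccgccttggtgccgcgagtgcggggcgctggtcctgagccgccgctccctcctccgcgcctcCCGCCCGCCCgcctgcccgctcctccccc
Scn4b: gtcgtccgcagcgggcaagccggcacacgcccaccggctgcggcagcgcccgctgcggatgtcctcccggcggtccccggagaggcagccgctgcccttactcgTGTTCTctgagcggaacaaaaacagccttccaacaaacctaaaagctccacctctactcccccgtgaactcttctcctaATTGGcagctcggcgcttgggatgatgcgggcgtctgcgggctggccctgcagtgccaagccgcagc
The windows of Cacna2d1, Cacnb1 and Cacnb4 held 82.4, 73.2 and 79.6% G and C, that of Scn4b 66.0%. Matches to GGGCGG, the GC box bound by SP factors, numbered 6 in Cacna2d1, 5 in Cacnb1 and 6 in Cacnb4, some of them overlapping. This motif stood in 32.7% of all 32851 windows in the table. Of the 34 windows listed for the 26 members 12 held it, among them those of genes with no state call such as Cacna1c and Cacng7. Scn4b held 1 glucocorticoid receptor element core, AGAACA, which 16.1% of all windows held. It also held 1 CCAAT box, read as these 5 letters, which 33.8% held. Neither the E-box CACGTG of the clock (6.02% of all windows) nor the D-box TTATGTAA (0.819%) matched in any window of the 26 members, and the ROR core AGGTCA (4607 windows) matched in 3 (Cacna1f, Cacng8 and Scn8a). The GC box was added to the search after the windows were seen, and none of these matches was tested. Whether the windows hold exons of transcripts that start elsewhere was not checked.

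Cacna2d1 encodes the alpha2delta subunit of cardiac and skeletal calcium channels, a glycoprotein anchored outside the membrane that raises channel number at the surface. At 3 h it lay between 9.79 and 10.55 (median 10.38) in SD hearts and between 10.39 and 10.58 (median 10.50) in SS hearts. At 6 h the values were 10.21 to 10.57 (median 10.44) in SD hearts and 10.41 to 10.60 (median 10.51) in SS hearts. The groups overlapped at both times, and 7 of 8 SD animals at 3 h and 7 of 9 at 6 h lay below the SS mean of their time. At 9 h SD hearts had 10.29 to 10.64 (median 10.58) and SS hearts 10.47 to 10.87 (median 10.69). At 12 h SD hearts had 10.39 to 10.60 (median 10.53) and SS hearts 10.56 to 10.85 (median 10.72), against 10.07 to 10.68 (median 10.55) at baseline. At 12 h the ranges shared only the stretch between 10.56 and 10.60, and all 9 SD animals at 9 h and all 8 at 12 h lay below the SS mean. Over all times SD hearts averaged 10.44 ± 0.16 (SD, n = 34) and SS hearts 10.59 ± 0.14 (SD, n = 36). The difference was -0.15 ± 0.04 (SE, adjusted p = 9.4e-04, limma), and 31 of 34 SD animals lay below the SS mean of their time. No single time passed on its own, the closest being 12 h with -0.20 (adjusted p = 0.044), and without the 12 h animals the pooled call was lost (-0.14, adjusted p = 0.025). A second probe set of Cacna2d1 was also called, at -0.11 ± 0.03 (adjusted p = 0.0069).

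Cacnb1 is the beta subunit best known from the skeletal muscle channel, where it links the pore to excitation-contraction coupling. At 3 h it had 5.56 to 6.01 (median 5.72) in SD hearts and 5.74 to 5.99 (median 5.84) in SS hearts. At 6 h the groups did not overlap, with 5.53 to 5.77 (median 5.66) in SD hearts and 5.82 to 5.96 (median 5.91) in SS hearts. How many of all probe sets had no overlap at 6 h was not counted. At 9 h SD hearts had 5.36 to 5.69 (median 5.58) and SS hearts 5.48 to 5.92 (median 5.79). All 9 SD animals lay below the SS mean at 6 h and again at 9 h, although the groups overlapped at 9 h. At 12 h SD hearts had 5.47 to 5.77 (median 5.61) and SS hearts 5.52 to 5.97 (median 5.76), against 5.68 to 6.00 (median 5.85) at baseline. Averages over all times were 5.64 ± 0.13 in SD hearts and 5.81 ± 0.14 in SS hearts (SD, n = 34 and 36). The pooled difference was -0.17 ± 0.03 (SE, adjusted p = 6.2e-05), with 32 of 34 SD animals below the SS mean of their time. The difference at 6 h passed by itself (-0.24 ± 0.05, adjusted p = 0.0020), as the 1 member called at that time (2.58% of all probe sets). Without the 6 h animals the pooled difference was -0.15 (adjusted p = 0.012).

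Cacnb4 is the beta subunit of neuronal calcium channels, known from the epileptic and ataxic lethargic mouse. Its values at 3 h were 5.50 to 5.99 (median 5.80) in SD hearts and 5.74 to 5.92 (median 5.85) in SS hearts. At 6 h they were 5.51 to 5.93 (median 5.65) in SD hearts and 5.67 to 6.09 (median 5.86) in SS hearts. Up to this time the groups overlapped widely. At 9 h SD hearts had 5.68 to 6.00 (median 5.82) and SS hearts 5.94 to 6.41 (median 6.16). All 9 SD animals were below the SS mean there, and the ranges shared only a narrow stretch. At 12 h SD hearts had 5.80 to 6.08 (median 5.91) and SS hearts 5.92 to 6.31 (median 6.01), against 5.51 to 5.89 (median 5.82) at baseline. The pooled difference was -0.18 ± 0.04 (SE, adjusted p = 5.8e-04), between averages of 5.81 ± 0.15 in SD hearts and 5.99 ± 0.18 in SS hearts (SD, n = 34 and 36), and 29 of 34 SD animals lay below the SS mean of their time. At 9 h it was -0.33 ± 0.06 (adjusted p = 4.0e-05). Without the 9 h animals the pooled difference was -0.13 (adjusted p = 0.051).

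Scn4b encodes the sodium channel beta subunit that promotes resurgent current in neurons and is also found in the heart. At 3 h the states were alike in range, with 7.38 to 7.89 (median 7.64) in SD hearts and 7.29 to 8.13 (median 7.63) in SS hearts. At 6 h SD hearts had 7.03 to 7.88 (median 7.40) and SS hearts 7.39 to 8.10 (median 7.75). At 9 h SD hearts had 6.55 to 7.36 (median 7.11) and SS hearts 7.22 to 7.92 (median 7.53). The 9 h SD group was the lowest of all 9 groups, every one of its animals lay below the SS mean, and its range overlapped that of SS hearts only between 7.22 and 7.36. At 12 h SD hearts had 7.03 to 7.60 (median 7.51) and SS hearts 7.15 to 8.00 (median 7.53), against 7.41 to 8.05 (median 7.82) at baseline. The difference at 9 h was -0.45 ± 0.11 (SE, adjusted p = 0.0060). Scn4b and Cacnb4 were the 2 members called at 9 h (5.88%, against 3.31% of all probe sets). With 1 probe set per symbol, as the members were read, 1033 of the 18820 named genes were called at 9 h, and 2 members. The call for Scn4b at 9 h was sensitive to single animals, since leaving out any 1 of 7 of the 18 animals took it over the threshold. The adjusted p rose up to 0.025 without SD animal 5 (the others were SD animals 4, 6 and 8 and SS animals 2, 6 and 8). With each of the 18 left out in turn the difference stayed between -0.50 and -0.38. Over all times the difference was -0.23 ± 0.07 (adjusted p = 0.010), between 7.40 ± 0.30 in SD hearts and 7.63 ± 0.25 in SS hearts (SD, n = 34 and 36). The pooled call was made in 8 of 15 other settings, and fitting the hour as a factor was one of these (-0.22, adjusted p = 0.0045). Without the 9 h animals it was -0.14 (adjusted p = 0.22), and 25 of 34 SD animals lay below the SS mean of their time.

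**Figure D2:**
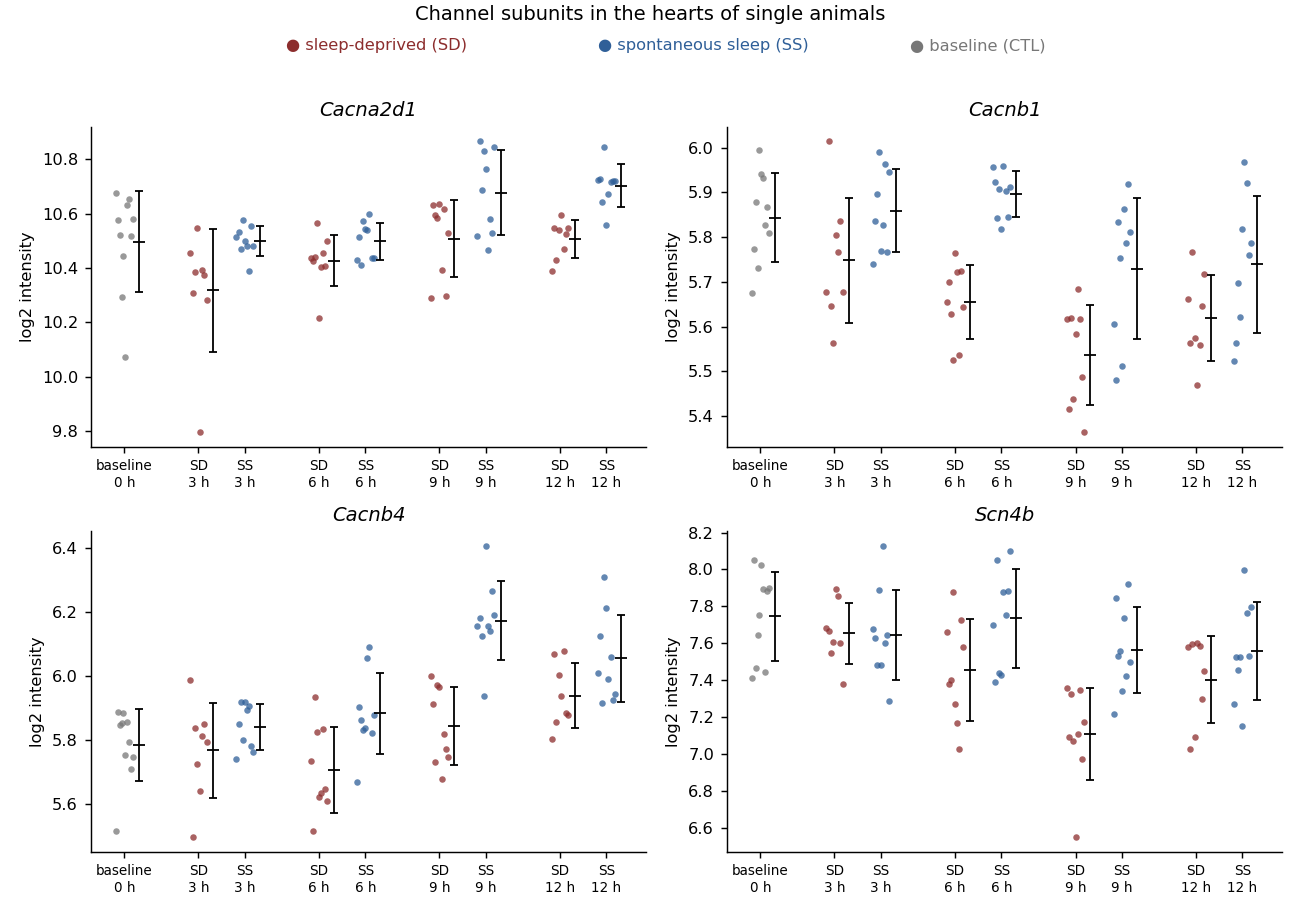
Log2 intensity (y axis) of Cacna2d1, Cacnb1, Cacnb4 and Scn4b in single animals (points), by hours since lights-on and group (x axis), with the group mean and SD beside the points. The SD points of Cacnb1 at 6 h lie wholly below the SS points (5.77 at most against 5.82 at least), and the SD points of Scn4b at 9 h reach from 6.55 to 7.36.

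The same difference was computed within each run of title numbers, with time of day in the model. Cacna2d1 was lower in SD hearts in all 4 runs (-0.19, -0.17, -0.09 and -0.16 in runs 1 to 4). Cacnb1 gave -0.07, -0.27, -0.18 and -0.18, Cacnb4 -0.21, -0.25, -0.09 and -0.17, and Scn4b -0.21, -0.42, -0.05 and -0.26. The direction was thus the same in every run for these 4 genes, while the sizes varied, with the smallest value in run 3 for 3 of them and in run 1 for Cacnb1. No p is read from runs of 15 to 20 animals. With the runs as a block in the model, the pooled differences of Cacna2d1, Cacnb1, Cacnb4 and Scn4b all passed.

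**Figure D3:**
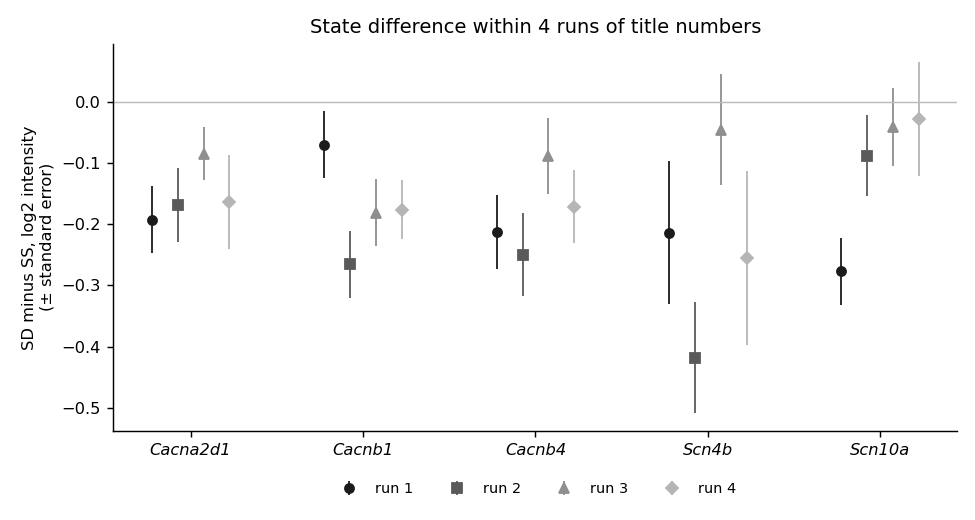
Difference between SD and SS hearts (y axis, log2 intensity, with bars of 1 standard error) of 5 subunit genes (x axis) within each of the 4 runs of title numbers, with time of day in the model. All 20 marks lie below 0, and the largest is Scn4b in run 2 at -0.42.

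No member was called at 3 h (1.59% of all probe sets) or at 12 h (3.13%), where limma gave 5 and 3 members an unadjusted p under 0.05. The test of whether the difference varied between times called none either (0.371% of all probe sets), with 9 members at an unadjusted p under 0.05. Cacnb4 (adjusted p = 0.17) and Scn4b (adjusted p = 0.26) did not pass it, so that their larger values at 9 h are not shown to differ from those at other times.

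The pore genes of the calcium channels had smaller differences. Cacna1c, the pore of the L-type channel of working heart muscle, averaged 10.44 ± 0.15 in SD hearts and 10.48 ± 0.13 in SS hearts (SD, n = 34 and 36), a difference of -0.04 ± 0.03 (adjusted p = 0.57). At 3 h it had 10.09 to 10.68 (median 10.37) in SD hearts and 10.39 to 10.84 (median 10.54) in SS hearts, and 7 of 8 SD animals lay below the SS mean. That difference of -0.20 ± 0.06 did not pass (adjusted p = 0.046). At 6, 9 and 12 h the differences were 0.01, -0.01 and 0.06, so that the states stood within their spread of each other. Cacna1g, a T-type pore, had its lowest group mean in SD hearts at 6 h, with 6.81 to 7.05 (median 6.93) in SD hearts and 6.99 to 7.35 (median 7.12) in SS hearts. All 9 SD animals lay below the SS mean there, with a difference of -0.21 ± 0.07 (adjusted p = 0.055), and the pooled difference was -0.09 ± 0.04 (adjusted p = 0.14). Cacna1h, the other T-type pore of the heart, differed by -0.04 ± 0.06 (adjusted p = 0.74).

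Changes over the light phase were asked in each state as a slope on hours, with baseline as 0 h. Scn7a rose in both states. It encodes an atypical sodium channel, known in mice from glia and sensory circumventricular organs as a sensor of sodium level rather than of voltage. At 3, 6, 9 and 12 h it had medians of 9.05, 9.20, 9.19 and 9.22 in SD hearts and of 9.11, 9.12, 9.17 and 9.35 in SS hearts, against 9.00 at baseline. Its SS values at 12 h (9.10 to 9.45) overlapped those at baseline (8.88 to 9.14) only at the edge, and so did its SD values at 12 h (9.12 to 9.39). The slope was 0.022 ± 0.004 log2 units per hour over deprivation (SE, adjusted p = 2.9e-04, 44 arrays) and 0.024 ± 0.003 over sleep (adjusted p = 2.7e-07, 46 arrays). The slopes differed by -0.0025 ± 0.0033 per hour, a difference that did not pass (adjusted p = 0.69). Within runs the slope over sleep was above 0 in 4 of 4, from 0.022 to 0.054, and that over deprivation in 3 of 4, from -0.014 to 0.086. With the runs as a block the slopes were 0.025 over deprivation (adjusted p = 0.12) and 0.028 over sleep (adjusted p = 0.022).

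Cacnb4 and Cacna2d1 rose over sleep. Cacnb4 averaged 5.84 ± 0.07, 5.88 ± 0.13, 6.17 ± 0.12 and 6.05 ± 0.14 in SS hearts at 3, 6, 9 and 12 h (SD, n = 9 each), against 5.78 ± 0.11 at baseline (n = 10), a slope of 0.029 ± 0.005 per hour (adjusted p = 3.3e-06). Cacna2d1 averaged 10.50 ± 0.06, 10.50 ± 0.07, 10.68 ± 0.16 and 10.70 ± 0.08, against 10.50 ± 0.19 at baseline, a slope of 0.019 ± 0.004 per hour (adjusted p = 6.0e-04). Both rose between 6 and 9 h, which is where runs 3 and 4 give way to runs 1 and 2. Within runs the slope of Cacnb4 over sleep was above 0 in 2 of 4 runs and that of Cacna2d1 in 3 of 4, and with the runs as a block the slopes were 0.00032 (adjusted p = 0.99) and 0.0029 (adjusted p = 0.93), so that time and run cannot be told apart here. Over deprivation Cacnb4 had a slope of 0.012 ± 0.005 (adjusted p = 0.079) and Cacna2d1 of 0.0058 ± 0.0058 (adjusted p = 0.58). By the criteria of the study, a state difference and, with p-values adjusted over the probe sets that pass it, a slope over sleep in the matching direction, Cacna2d1 and Cacnb4 were sleep-enhanced, as were 1.48% of all probe sets, and no member was sleep-repressed (1.14%). In all 5 members passed the slope over sleep (14.7%, against 17.6% of all probe sets). Of these 3 rose (8.23% of all probe sets) and 2, Cacna1s and Scn3b, fell (9.32%). Among the 18820 named genes, with 1 probe set per symbol, 4455 passed the slope over sleep, and 5 members did.

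**Figure D4:**
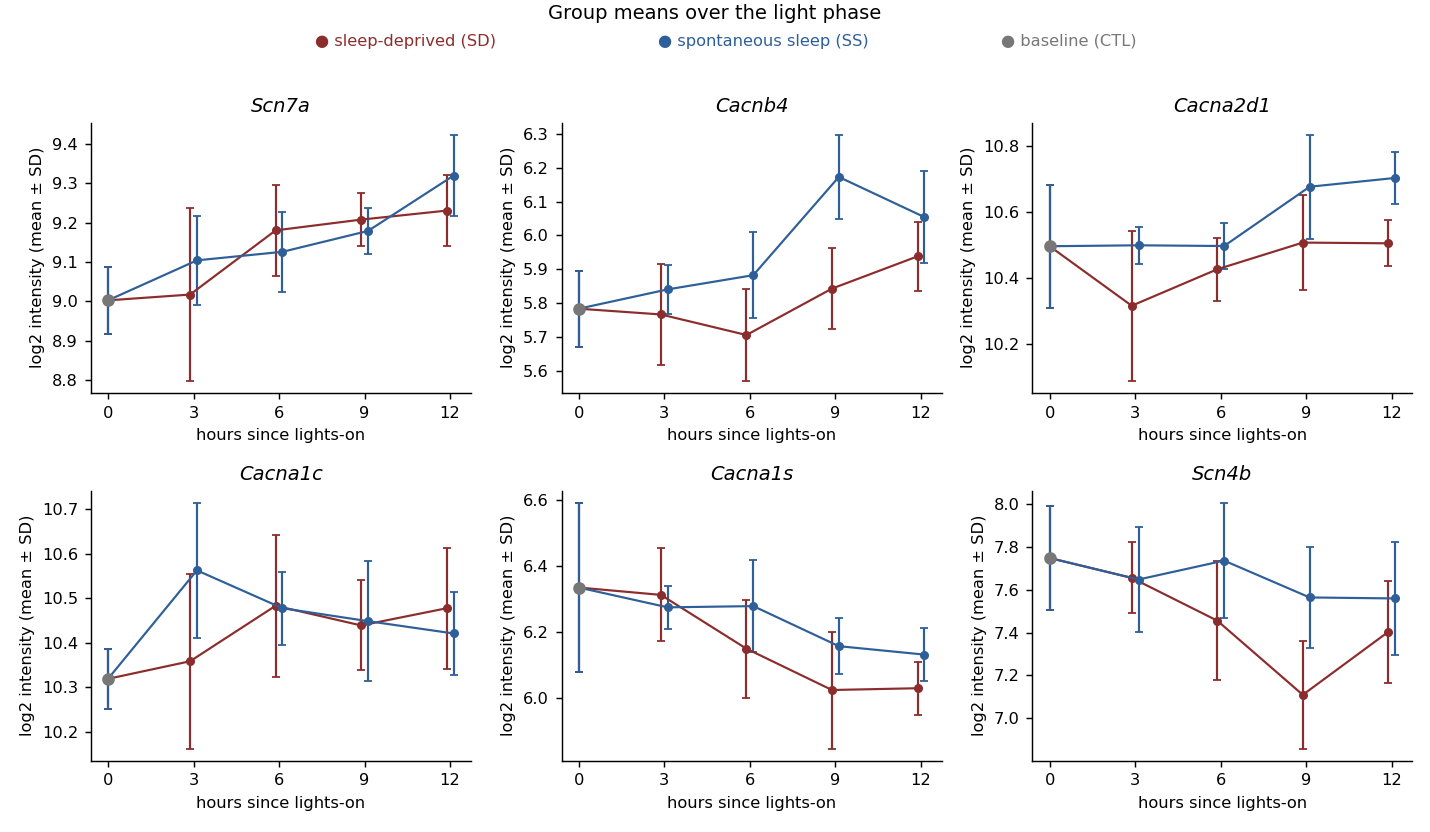
Group means with SD (y axis, log2 intensity) of 6 subunit genes over hours since lights-on (x axis), with sleep-deprived and sleeping hearts sharing the baseline group at 0 h. Scn7a climbs in both states, to 9.23 in SD and 9.32 in SS hearts at 12 h, while the SD means of Cacnb4 and Cacna2d1 lie below the SS means at all 4 times, with 5.84 and 10.51 in SD and 6.17 and 10.68 in SS hearts at 9 h.

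Over deprivation 6 members passed (17.6%, against 10.2% of all probe sets). With 1 probe set per symbol, as the members were read, 2944 of the 18820 named genes passed, and the same number of members. Besides Scn7a, which rose (4.07% of all probe sets did), these were Cacnb1, Scn4b, Cacna1s, Scn10a and Cacna1a, which fell (6.09%). Scn4b had medians of 7.64, 7.40, 7.11 and 7.51 in SD hearts at 3, 6, 9 and 12 h, against 7.82 at baseline, and a slope of -0.042 ± 0.009 per hour (adjusted p = 6.3e-04). Its course was lowest at 9 h rather than at 12 h, and within runs its slope was -0.04 and -0.10 in runs 3 and 4 but 0.10 in each of runs 1 and 2. Cacnb1 had a slope of -0.023 ± 0.004 (adjusted p = 4.7e-05), which within runs also fell in runs 3 and 4 (-0.03 and -0.04) and was above 0 in runs 1 and 2 (0.02 and 0.03). With the runs as a block no member passed over deprivation or over sleep, and without baseline Cacna1s alone passed over deprivation. Scn10a, a sodium channel pore of sensory neurons, fell by 0.020 ± 0.005 per hour (adjusted p = 0.0043), with medians of 4.85, 4.71, 4.65 and 4.70 in SD hearts at 3, 6, 9 and 12 h, against 4.89 at baseline, and its slope was below 0 in 4 of 4 runs. Cacna1a, the P/Q-type pore of nerve terminals, had medians of 5.52, 5.44, 5.39 and 5.36, against 5.61 at baseline, and fell by 0.017 ± 0.004 per hour (adjusted p = 0.0067), below 0 in 3 of 4 runs. Without the 5 arrays of low correlation Scn10a did not pass (adjusted p = 0.012), and without the 2 arrays high in skeletal muscle markers Cacna1a did not (adjusted p = 0.015).

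Slopes in the 2 states were also compared directly, in a model with 1 intercept. The difference passed in 5 members (14.7%, against 10.2% of all probe sets), and the slope over deprivation was the lower one in each (5.79% of all probe sets, with 4.44% the other way). It was -0.029 ± 0.007 per hour for Scn4b (adjusted p = 0.0026), -0.021 ± 0.004 for Cacnb4 (adjusted p = 3.4e-05), -0.019 ± 0.004 for Cacnb1 (adjusted p = 4.8e-05), -0.018 ± 0.004 for Cacna2d1 (adjusted p = 6.1e-04) and -0.018 ± 0.004 for Scn10a (adjusted p = 8.1e-04). With 1 probe set per symbol, as the members were read, 2777 of the 18820 named genes passed, and 5 members. With separate intercepts and without baseline no member passed. These slopes use the same SD and SS animals as the state difference and are not a second line of evidence for it.

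A test over the 5 times in sleep without a straight line called 4 members (11.8%, against 16.8% of all probe sets). Cacnb4 (adjusted p = 5.4e-08), Scn7a (3.5e-05) and Cacna2d1 (0.0033) were among them, with Scn3a, a sodium channel pore of the embryonic brain, as the fourth (0.0051). Among the 18820 named genes, with 1 probe set per symbol, 4322 passed this test, and 4 members did. Scn3a had medians of 3.97, 3.97, 3.86 and 4.16 in SS hearts at 3, 6, 9 and 12 h, against 3.90 at baseline, so that it was highest at 12 h. Cacna1c averaged 10.56 ± 0.15 in SS hearts at 3 h, its highest group, against 10.32 ± 0.07 at baseline, its lowest, and did not pass (adjusted p = 0.015).

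Cacna1s, the L-type pore of skeletal muscle, fell over the light phase in both states. Its medians at 3, 6, 9 and 12 h were 6.26, 6.09, 6.03 and 6.02 in SD hearts and 6.25, 6.27, 6.17 and 6.09 in SS hearts, against 6.24 at baseline. The slopes were -0.030 ± 0.006 per hour over deprivation (adjusted p = 2.4e-04) and -0.017 ± 0.005 over sleep (adjusted p = 0.0060). Baseline animal 2, the one with raised skeletal muscle markers, had the highest value of all at 7.02, and the next baseline animal had 6.45. Without this animal and SD animal 4 at 6 h the slopes were -0.025 (adjusted p = 0.00026) and -0.012 (adjusted p = 0.0068). With the runs as a block they were -0.027 (adjusted p = 0.25) and -0.016 (adjusted p = 0.49), and within runs each was below 0 in 3 of 4. Scn3b, a sodium channel beta subunit linked to inherited arrhythmia in humans, had medians of 4.98, 4.96, 4.90 and 4.98 in SS hearts at 3, 6, 9 and 12 h, against 5.27 at baseline. Its slope over sleep was -0.018 ± 0.005 (adjusted p = 0.0095), without baseline it was -0.0068 (adjusted p = 0.51), and without the 5 arrays of low correlation it missed the threshold (adjusted p = 0.011).

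The spread between animals over baseline and sleep was called for no member (0.458% of all probe sets, Bartlett's test with the Brown-Forsythe test). The smallest adjusted p of Bartlett's test was that of Cacna1s (0.014), whose SD at baseline was 0.26, against 0.07 to 0.14 in SS hearts, with the Brown-Forsythe test at p = 0.44. Cacna2d1 had an SD of 0.19 at baseline and of 0.06 to 0.16 in SS hearts (adjusted p = 0.066).

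Of the remaining members no comparison called any. The calcium channel pores Cacna1b, Cacna1e, Cacna1f and Cacna1i, known from nerve terminals, neurons, retina and thalamus, differed between states by -0.05 to 0.01. Cacna2d2, Cacna2d3 and Cacna2d4 differed by 0.01 each, with standard errors of 0.03 to 0.09. The 8 gamma subunits, most of which are known as partners of AMPA receptors in the brain and 1 of which, Cacng1, belongs to the skeletal muscle channel, ranged from -0.11 (Cacng7, adjusted p = 0.088) to 0.05 (Cacng4 and Cacng1). The neuronal sodium channel pores Scn1a, Scn2a, Scn8a, Scn9a and Scn11a ranged from -0.14 (Scn2a, adjusted p = 0.097) to 0.03 (Scn11a), and Scn2b differed by 0.06 (adjusted p = 0.28). No detection call was used, so that it was not tested whether these genes, with means of 2.72 to 6.86, or Cacnb1 and Cacnb4, stood above background. Nor was it tested for Scn3a, Scn10a, Scn3b and Cacna1a, called over sleep or deprivation above at means of 3.96, 4.81, 5.02 and 5.48.

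Markers of other cell types were read beside the members, as list means with group means removed, over all 80 arrays that share 1 normalisation. The values are descriptions, with no test, of all pairs of 14 members with 11 lists, of which 3 had an r above 0.5. Cacna1h varied with the 6 atrial cardiomyocyte markers (r = 0.79, Spearman rho = 0.65, and r = 0.73 without the 2 arrays farthest from the median). Within the 4 runs this r ranged from 0.41 to 0.86, and with the 7 conduction system markers it was 0.75 over all arrays (rho = 0.72) and 0.62 to 0.82 within runs. Cacna1h also had r of 0.47 with the fibroblast, 0.43 with the adipocyte, 0.42 with the Schwann cell and 0.36 with the smooth muscle and pericyte list. For the neuron, skeletal muscle, lung epithelium, endothelial and working heart muscle lists it was 0.25, 0.07, -0.01, -0.14 and -0.30. The atrial list itself varied more between animals than between groups, from 8.00 to 10.76. Its group means lay between 10.01 and 10.37 in SD hearts and between 9.73 and 10.19 in SS hearts, and none of its 6 members passed the state difference. Scn7a varied with the 6 atrial markers (r = 0.43, rho = 0.32, r = 0.34 without the 2 farthest arrays), from 0.17 to 0.59 within runs. It also varied with the 5 Schwann cell markers measured (r = 0.49, rho = 0.44, r = 0.44 without the 2 farthest arrays), but from -0.12 to 0.66 within runs. Of these 5 markers Cdh19 rose over both states as Scn7a did, by 0.061 per hour over deprivation and 0.063 over sleep, and no other passed. Kcna1 (-0.023 over deprivation and -0.023 over sleep) and Sox10 (-0.013 and -0.010) lay below 0. S100b (0.004 and 0.013) and Foxd3 (0.009 and 0.014) lay above 0. The r of Cacna1s with skeletal muscle markers was 0.59 and rested on 2 arrays, being 0.27 without them and -0.18 to 0.87 within runs (rho = 0.21). Cacna2d1 varied with working heart muscle markers (r = 0.42, rho = 0.32, -0.33 to 0.81 within runs), none of which passed the state difference. The neuron list gave r of 0.14 with Cacnb1, 0.03 with Cacnb4 and 0.00 with Scn10a (rho = 0.01, 0.09 and 0.04), with none of its 8 measured members past the state difference. Of the other lists, 2 of 6 endothelial markers (Pecam1 and Esam) and 1 of 10 skeletal muscle markers (Acta1) were higher in SD hearts (3.43% of all probe sets). Lower (4.94%) were 2 of 7 smooth muscle and pericyte markers (Kcnj8 and Pdgfrb) and 1 of 6 fibroblast markers (Lum). The rest of the smooth muscle and pericyte list did not pass and lay above 0 (Cnn1 0.35, Tagln 0.17, Acta2 0.11, Rgs5 0.05, Myh11 0.001). That list's median difference was 0.05. The part of these cell types in the results above was not tested.

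**Figure D5:**
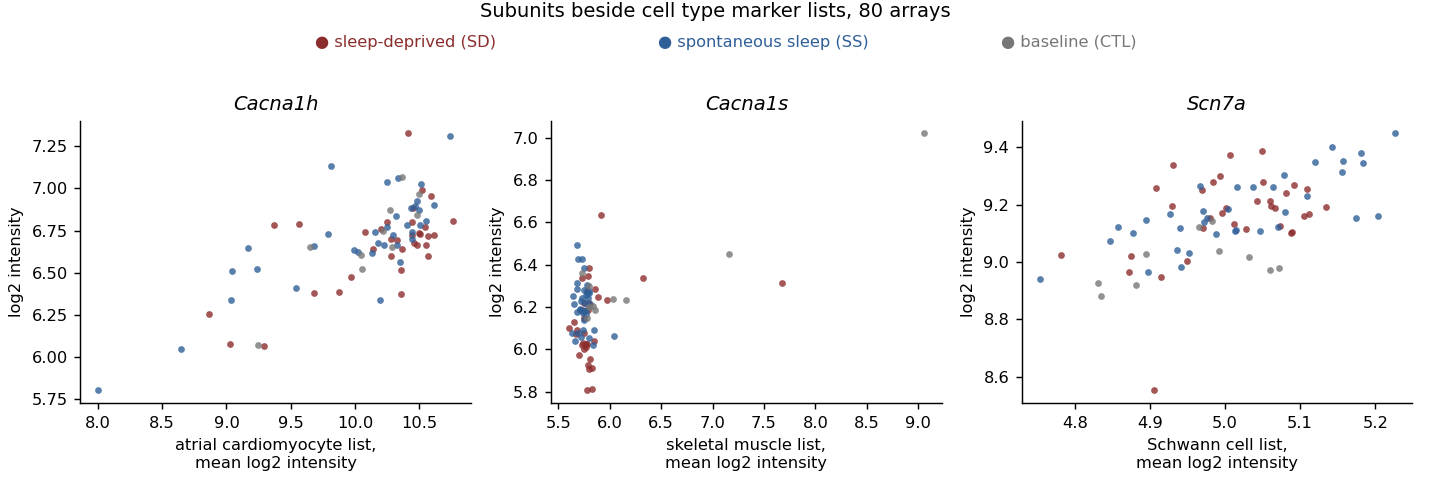
Log2 intensity (y axes) of Cacna1h, Cacna1s and Scn7a against the mean log2 intensity of a marker list (x axes) on each of the 80 arrays, with points for sleep-deprived, sleeping and baseline hearts. Cacna1h climbs with the atrial list over its range of 8.00 to 10.76, the point of Cacna1s at 7.02 is baseline animal 2, and Scn7a climbs with the Schwann cell list.

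Partners of the channels were counted from 3 lists. These lists were chosen with earlier results of these data known, so that their counts are descriptions and no test of an excess. Of 32 proteins that bind, anchor or regulate the channels 28 were measured, and 1 was higher and 9 lower in SD hearts, against 3.43 and 4.94% of all probe sets. The median difference of this list was -0.05, against -0.01 over all probe sets. Akap5, which anchors protein kinase A and calcineurin at the L-type channel, differed most (-0.55 ± 0.09, adjusted p = 1.1e-06). Calm2, 1 of 3 genes of calmodulin, the calcium sensor on both channels, gave -0.27 ± 0.04 (adjusted p = 4.7e-08). Fgf14, an intracellular partner of sodium channel tails, gave -0.25 ± 0.05 (adjusted p = 5.6e-05), and Camk2g, a subunit of calmodulin-dependent kinase, -0.20 ± 0.03 (adjusted p = 4.2e-06). Nedd4l, a ubiquitin ligase that removes sodium channels from the membrane, was the 1 higher member (0.08 ± 0.02, adjusted p = 0.0087). Of 30 measured calcium handling genes 2 were higher, the store chaperone Calr (0.17 ± 0.03, adjusted p = 5.2e-05) and the store sensor Stim1 (0.14 ± 0.03, adjusted p = 0.0013). Another 2 were lower, the sodium-calcium exchanger Slc8a1 (-0.12 ± 0.03, adjusted p = 0.0013) and Asph, whose locus also encodes junctin of the release complex (-0.11 ± 0.02, adjusted p = 3.0e-04). The list's median was 0.01. Of 7 measured sodium transport genes only Fxyd5, a regulator of the sodium pump, passed (0.25 ± 0.03, adjusted p = 3.2e-08).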

How the data were processed

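Heart RNA of 80 mice was read by the authors on Affymetrix Mouse Gene 1.0 ST arrays, 1 array per animal, and normalised by RMA over all heart arrays. The deposited values are RMA log2 intensities whose decimal points were lost. Each point was put back after 2 digits in values that begin with 10 to 13 and after 1 digit in the others. A single value (1), of a probe set with no name, was read the other way. The restored values ran from 1.38 to 13.8. Precision is limited by the number of animals. The genome build behind the deposited probe sets is not given in the sources used here.

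Groups came from the labels. Probe sets were named from the platform annotation (21218 with 1 symbol, 1881 with several and 12457 with none), and the promoter windows are from RefSeq. The state difference was fitted in limma 3.58.1 (R 4.3.3) on 70 arrays, in place of the study's maanova. Differences at single times, their interaction and the time course came from 9 group means on 80 arrays, and slopes from 46 or 44 arrays. Benjamini-Hochberg adjustment ran over all 35556 probe sets at 1%, except for the slopes of the sleep-enhanced and sleep-repressed classes, which were adjusted within the probe sets called in the state difference. For the spread, calls needed an adjusted Bartlett p and an unadjusted Brown-Forsythe p that were both under 0.01. Python 3.11.15, numpy 2.4.6, pandas 2.3.3, scipy 1.17.1 and matplotlib 3.10.9 served for values and figures. The fits were tested on simulated data.

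The members, the lists and the tests were chosen with earlier results of these data known. Of the members below 7, those past 1% in a comparison, next to the cutoff or best known from heart or another tissue were named, and of each list up to 4 per direction. Alternatives covered normalisation, dim probe sets, 1 or all probe sets per symbol, shrinkage, array weights, single times, runs, baseline, models and single arrays. Runs within themselves, single arrays left out and the arrays with skeletal muscle markers were added after seeing the data.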

Additional observations from a re-analysis of the deposited data

Results flagged for a closer look

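Values of single animals far from the rest of their group were sought in 14 subunit genes over 9 groups. The gap to the nearest animal exceeded Dixon's limit in 15 of these sets of animals, where chance flags about 1 in 20 groups. Of these, 3 came from SD animal 5 at 3 h, 1 of the 5 arrays of low correlation, with Cacna2d1 at 9.79, Scn7a at 8.55 and Cacna1s at 6.64, and another from SD animal 5 at 6 h, also 1 of the 5, with Cacna2d1 at 10.21. Without these 5 arrays the pooled difference of Cacna2d1 was -0.13 (adjusted p = 0.0016). Baseline animal 1 was lowest in Cacna1a (5.24), Cacnb4 (5.51) and Scn3b (4.68). Cacna1s was highest in baseline animal 2 (7.02) and in SS animal 6 at 3 h (6.43). SD animal 5 at 9 h was lowest in Scn4b (6.55) and in Cacna1h (6.07). Cacna1h reached 7.33 in SD animal 7 at 3 h, Scn7a 9.35 in SS animal 2 at 3 h, Cacna1g was lowest in SS animal 1 at 12 h (6.75), and Scn10a in SD animal 8 at 3 h (4.51).

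The slope over hours differed between the states in 5 genes. Per hour, the slope over deprivation minus that over sleep was -0.029 for Scn4b, -0.021 for Cacnb4, -0.019 for Cacnb1, -0.018 for Cacna2d1 and -0.018 for Scn10a (limma, each past an adjusted p of 0.01). With separate intercepts from 3 h on, Scn10a gave -0.028 (adjusted p = 0.17) and none of the 5 passed.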

How the results depend on the processing

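The 3 members called in the pooled state difference became 2 without the 6 h animals (Cacnb1 lost), 2 without those of 9 h (Cacnb4 lost), 2 without those of 12 h (Cacna2d1 lost) and 5 without those of 3 h, with Scn4b and Scn10a added. They ranged from 3 to 5 with each of 70 animals left out, 5 without SD animal 6 at 3 h. Cacna2d1, Cacnb1 and Cacnb4 stayed called in all 70. The 1 call at 6 h was lost with repeated quantile normalisation (0). The 2 at 9 h became 1 with centred arrays and 1 in a fit of the 9 h arrays alone, and ranged from 1 to 3 with each of 18 animals left out, 1 without SD animal 4, 5, 6 or 8 or SS animal 6 or 8. The 5 over sleep and the 6 over deprivation became 0 each with the runs as a block, and those over deprivation 1 without baseline. The 5 with different slopes became 0 with separate intercepts.

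Over all probe sets, called counts of 2979 for the state difference became 1826 without the 6 h animals and 1567 without those of 9 h. Fits of single times called 0.447, 1.46, 1.29 and 0.984% of all probe sets at 3, 6, 9 and 12 h, against 1.59, 2.58, 3.31 and 3.13%. With the runs as a block 509 passed over sleep (6241) and 793 over deprivation (3611). Deprivation without baseline gave 1726, and separate intercepts 63, against 3637. The spread test gave 163, and 37 without baseline, 14 without dim probe sets and 0 with Brown-Forsythe alone.

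Values of single members, over 50 results and 529 settings, changed direction in 5, in settings where the member was not called. These were Scn7a in the state difference (0.0021 with centred arrays, 0.0033 without the 12 h animals), Cacna1c (0.017 without the 3 h animals), and Cacnb1 in the slope over sleep with the runs as a block (0.0066) and in the difference of slopes with separate intercepts (0.00043). A further 34 lost and 19 gained a call, and the cause was not tested. No paired analysis was possible because the labels give the groups no shared replicate numbers, and the last number of each title occurs once.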
